A study of Mus musculus with 10 samples.

Results

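In mice without functional *Zbtb16* (KO), prefrontal cortex (PFC) transcripts of *Adra2a* and *Slc29a4* were higher than in every WT mouse. The first gene encodes the alpha2A-adrenergic receptor and the second a monoamine transporter. *Adra1d* was higher than in every WT mouse in 4 of 5 KO mice and lower than in every WT mouse in KO mouse 5. The ranges of the other genes of the set also overlapped between the genotypes. The set comprises 8 of the 22000 genes in the count table: the adrenergic receptor genes *Adra1a*, *Adra1b*, *Adra1d*, *Adra2a*, *Adra2c* and *Adrb1*, the low-affinity, high-capacity transporter gene *Slc29a4* and the monoamine oxidase gene *Maoa*. They were selected by name, with the KO against WT difference in these same counts already known. Their KO against WT values are therefore a description. The number that passed the threshold of the fit over all genes is given for reference, and nothing is drawn from it.

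Bulk RNA-seq was performed on PFC tissue from 10 mice, 5 of them WT and 5 KO, with 1 library per mouse. All were described as male and were 7 weeks old. *Zbtb16* encodes a zinc finger transcription factor. KO mice were homozygous for *lu* (luxoid), a constitutive nonsense point mutation carried by the B6.C3-Zbtb16 lu /J line, so every cell of the animal bears it throughout life. WT mice carried the intact allele. The question put to these genes was whether transcripts for the reception and removal of noradrenaline and related amines differ between the genotypes.

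Noradrenaline reaches the cortex through fibres from the brainstem and acts on 3 classes of G protein-coupled receptors. Alpha1 receptors couple to Gq and phospholipase C, alpha2 receptors couple to Gi and lower cAMP, and beta receptors couple to Gs and raise cAMP. In PFC, alpha2A receptors are known for their part in working memory. Released amines are taken up by transporters in neuronal and other membranes and are broken down by monoamine oxidases and other enzymes.

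The 6 receptors share a fold with 7 membrane-spanning helices, and a short motif at the inner end of the third helix, Asp-Arg-Tyr, is conserved in this receptor family. The 63 coding bases around this motif are shown because they place the 6 genes in their classes and show how far the transcripts differ around a conserved motif. They were read from the Gencode M21 transcripts of GRCm38, 5′ to 3′ on the coding strand, and the capitals mark the 3 codons of the motif.
Adra1a, chr14:66637917-66637979, plus strand: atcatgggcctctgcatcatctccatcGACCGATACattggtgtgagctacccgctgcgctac
Adra1b, chr11:43835630-43835692, minus strand: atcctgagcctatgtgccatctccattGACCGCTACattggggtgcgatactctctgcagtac
Adra1d, chr2:131561575-131561637, minus strand: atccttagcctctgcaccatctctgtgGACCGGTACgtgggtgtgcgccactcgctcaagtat
Adra2a, chr19:54046620-54046682, plus strand: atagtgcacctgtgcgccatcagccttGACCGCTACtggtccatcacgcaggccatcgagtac
Adra2c, chr5:35280300-35280362, plus strand: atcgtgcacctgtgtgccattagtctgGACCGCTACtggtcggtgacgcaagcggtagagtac
Adrb1, chr19:56722807-56722869, plus strand: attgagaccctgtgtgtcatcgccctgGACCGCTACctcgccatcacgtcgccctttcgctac

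In these windows *Adra2a* and *Adra2c* had 51 of 63 bases in common, or 81.0%. The alpha1 genes had 71.4% to 76.2% in common with each other, and the lowest identity, 47.6%, was between *Adra1d* and *Adrb1*. The longest exact run that the annotated transcripts of any 2 of the 8 genes shared was 53 bases, shorter than a read of 101 bases. Coding GC content ranged from 45.8% in *Maoa* to 68.7% in *Adrb1*.

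In the Gencode M21 annotation, *Adra2a* (ENSMUSG00000033717.6) occupies chr19:54044151-54048982, *Adra2c* (ENSMUSG00000045318.6) chr5:35278319-35281763 and *Adrb1* (ENSMUSG00000035283.5) chr19:56722199-56733113, all on the plus strand and each with its whole coding sequence in 1 exon. *Adra1a* (ENSMUSG00000045875.13) lies at chr14:66635251-66771168 on the plus strand, *Adra1b* (ENSMUSG00000050541.14) at chr11:43774606-43901210 on the minus strand and *Adra1d* (ENSMUSG00000027335.9) at chr2:131545850-131562283 on the minus strand. Their coding sequences are divided between 2 or, in *Adra1a*, up to 3 exons. *Slc29a4* (ENSMUSG00000050822.11) lies at chr5:142692512-142722490 with up to 10 coding exons, and *Maoa* (ENSMUSG00000025037.6) at chrX:16619698-16687818 with 15, both on the plus strand. The exons of *Adra1d* alone are overlapped by another gene, the antisense transcript *Gm14285*. Whether HTSeq used the strand of the reads is not given in the sources used here. Reads of the antisense transcript within the *Adra1d* counts therefore cannot be told apart.

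Counts per library ranged from 30220122 to 51231439, and 14344 genes, among them 8 of 8 members, passed the filter on low counts. Levels are given as CPM, a gene's counts relative to the size of its library, with TMM scaling, and a gene needs 3 counts, or 0.0586 to 0.0993 CPM, to be seen. *Zbtb16* transcripts were lower in each KO mouse (42.1 to 52.8 CPM) than in each WT mouse (70.7 to 88.3 CPM), as a check of the labels. The library of KO mouse 3 had 1 count over 4 Y-linked genes, against 4376 to 8182 in the other libraries, although the mouse is described as male. Both KO mouse 3 and KO mouse 5 stood apart from the rest over 9910 genes of 10 CPM or more. Their median root mean square difference to the other libraries was 0.238 and 0.228 in log2 CPM, against 0.153 to 0.178 for the other 8 mice. Both were kept, and results are also given without them. Markers of cortical excitatory neurons were plentiful, with summed levels of 1920 to 2410 CPM. Markers of striatal medium spiny neurons, cells outside the cortex, summed to 411 to 584 CPM in KO and 369 to 692 CPM in WT mice, with WT mouse 5 highest. In bulk tissue, fewer cells of a type and less RNA per cell cannot be told apart.

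Under a model with genotype and 3 surrogate variables, which are weights per mouse standing for unrecorded differences between libraries, 3 of the 8 genes had an FDR under 0.05 (edgeR), namely *Adra1d*, *Adra2a* and *Slc29a4*, all higher in KO. Over all tested genes 0.844% passed, or 121 genes. CPM did not overlap between the genotypes for 2 of the 8, *Adra2a* and *Slc29a4*, and for 1.58% of all tested genes. Since the genes were chosen on this contrast, these counts do not bear on the members. Log2 fold changes come from the model with surrogate variables unless another is named, so they can differ from the ratio of mean CPM. Fold changes were positive for 4 genes and negative for 4, with a median log2 fold change of 0.05 against -0.00435 over all tested genes. The number of the 8 genes under the threshold was 1 without KO mouse 3, WT mouse 4 or WT mouse 5, and 0 without WT mouse 3, while the calls over all genes became 54, 65, 90 and 39 in these fits.

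**Figure D1:**
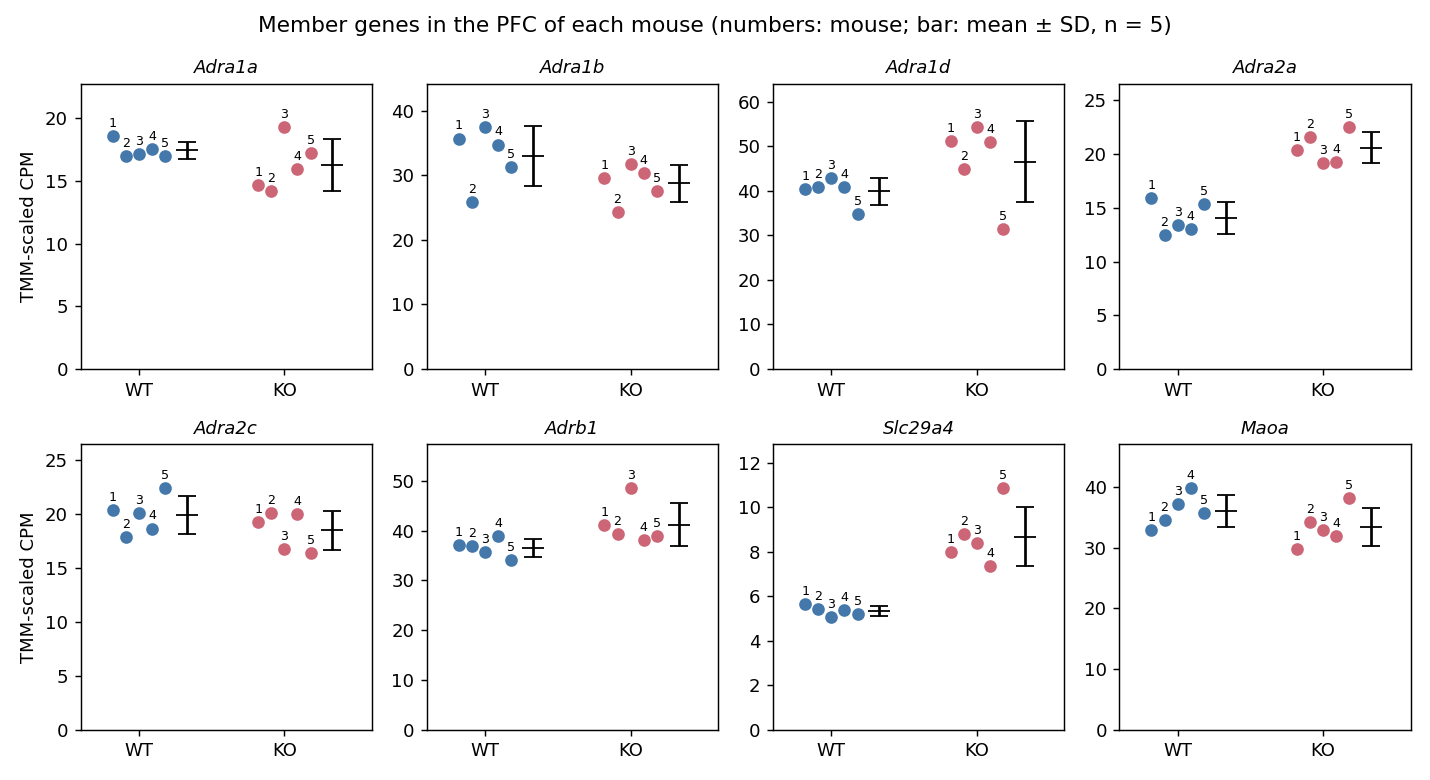
TMM-scaled CPM of each of the 8 genes in the PFC of each mouse. Points are mice, numbered as in the labels, and the bar beside each group is the mean ± SD of 5 mice. The KO and WT points are separated for Adra2a and Slc29a4 and overlap for the other 6 genes, and KO mouse 5 lies lowest for Adra1d and highest for Slc29a4.

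Among the alpha1 receptors, the Gq-coupled class, the 3 genes had fold changes of both signs. *Adra1d*, the most abundant receptor transcript of the set, stood at 40.4, 40.9, 42.9, 40.8 and 34.8 CPM in WT mice 1 to 5 and at 51.2, 44.8, 54.3, 50.95 and 31.5 CPM in KO mice 1 to 5. KO mice 1 to 4 were above every WT mouse and KO mouse 5 was below every WT mouse. Its log2 fold change was 0.32 (SE 0.06) with the surrogate variables and 0.22 without them. KO mouse 5 also had the lowest RNA integrity number (RIN), 8.1, and the lowest summed level of interneuron markers, 723 CPM, against 762 to 816 in the other KO mice and 784 to 865 in WT mice. With RIN in place of the surrogate variables the log2 fold change was 0.21, and the part of the interneuron markers was not tested. Leaving out 1 mouse gave values from 0.23 (without KO mouse 4) to 0.37 (without WT mouse 3), with 0.31 without KO mouse 3 and 0.32 without KO mouse 5.

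*Adra1b* had 35.7, 25.8, 37.4, 34.7 and 31.2 CPM in the WT mice and 29.6, 24.35, 31.65, 30.4 and 27.6 CPM in the KO mice. No KO mouse exceeded the WT mean of 32.97 CPM, but the ranges overlapped, with WT mouse 2 lowest in its group and KO mouse 3 above WT mouse 5. The lowest KO value, in KO mouse 2, was the only one below every WT mouse. On the log2 scale the difference was -0.19 (SE 0.08), with a range from -0.30 (without KO mouse 4) to -0.16 (without WT mouse 3). *Adra1a* had 18.6, 17.0, 17.2, 17.5 and 16.95 CPM in the WT mice and 14.7, 14.2, 19.3, 16.0 and 17.2 CPM in the KO mice. Of the KO mice, 3 were below every WT mouse and KO mouse 3 was above them all. The log2 fold change of *Adra1a* was -0.11 (SE 0.08), and it ranged from -0.20 without KO mouse 3 to -0.04 without KO mouse 1.

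Of the alpha2 receptors, which act in Gi-coupled feedback on noradrenergic endings and on cortical neurons, *Adra2a* was higher in every KO mouse than in any WT mouse, whereas the ranges of *Adra2c* overlapped. WT mice 1 to 5 had 15.9, 12.5, 13.4, 13.01 and 15.4 CPM of *Adra2a*, and KO mice 1 to 5 had 20.4, 21.6, 19.2, 19.3 and 22.5 CPM. The lowest KO mouse was thus above the highest WT mouse. The means were 14.1 ± 1.53 CPM in WT and 20.6 ± 1.45 CPM in KO mice (SD, n = 5 each). With the surrogate variables the log2 fold change was 0.51 (SE 0.08). It was 0.56 without surrogate variables, 0.52 with a summary of the striatal markers (striatal score) as covariate instead, 0.53 without KO mouse 3 and 0.55 without KO mouse 5. The lowest value without a mouse was 0.47 and the highest 0.59.

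*Adra2c*, the closest relative of *Adra2a* in the windows shown above, had 20.4, 17.8, 20.1, 18.6 and 22.4 CPM in WT mice and 19.25, 20.1, 16.7, 19.98 and 16.35 CPM in KO mice. KO mice 3 and 5 were below every WT mouse and the other 3 lay within the WT range. Its log2 fold change was -0.09 (SE 0.08), of the opposite sign to that of *Adra2a*, and ranged from -0.13 (without WT mouse 2) to -0.01 (without WT mouse 5). The difference between these fold changes was not tested, since both were known when the genes were chosen.

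*Adrb1* encodes the beta1 receptor, which raises cAMP through Gs. It stood at 37.1, 36.9, 35.6, 38.8 and 34.1 CPM in WT mice and 41.1, 39.3, 48.6, 38.2 and 38.8 CPM in KO mice. All 5 KO mice were above the WT mean of 36.5 CPM, and 3 were above every WT mouse. The log2 fold change was 0.19 (SE 0.06) with the surrogate variables and 0.17 without them. It was 0.13 without KO mouse 3, whose value was the highest of the 10, and 0.11 without WT mouse 5.

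Of the clearance genes, *Slc29a4* did not overlap between the genotypes and *Maoa* did. *Slc29a4* encodes the plasma membrane monoamine transporter, which carries serotonin and dopamine with low affinity and high capacity and is a relative of the nucleoside transporters. It had the lowest CPM of the set, a measure not scaled by gene length. WT mice 1 to 5 had 5.65, 5.425, 5.07, 5.36 and 5.20 CPM, and KO mice 1 to 5 had 7.99, 8.80, 8.41, 7.35 and 10.9 CPM. Every KO mouse was above every WT mouse, and KO mouse 5 was the highest. The means were 5.34 ± 0.219 CPM in WT and 8.69 ± 1.34 CPM in KO mice (SD, n = 5 each), from 170 to 259 counts per WT library and 249 to 563 per KO library.

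The log2 fold change of *Slc29a4* was 0.61 (SE 0.11), the largest among the 8 genes. It was 0.71 without surrogate variables and 0.69 with the striatal score. Leaving out 1 mouse gave values from 0.53 (without WT mouse 3) to 0.71 (without KO mouse 4), with 0.60 without KO mouse 3 and 0.61 without KO mouse 5. In KO mice its coefficient of variation was 15.4%, against 5.51% from counting alone, and in WT mice it was 4.10% against 7.12%, so the spread between WT libraries was below that of counting alone. Markers of choroid plexus, an epithelium beside the ventricles, had sums of 2.23 to 3.91 CPM in KO and 1.68 to 3.72 CPM in WT mice, and their part in the *Slc29a4* value was not tested.

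*Maoa*, whose mitochondrial enzyme deaminates serotonin, noradrenaline and dopamine, had 32.8, 34.5, 37.15, 39.8 and 35.65 CPM in WT mice and 29.7, 34.25, 32.9, 31.9 and 38.2 CPM in KO mice. KO mice 1 and 4 were below every WT mouse, and KO mouse 5 was above all but WT mouse 4. The log2 fold change was -0.20 (SE 0.06), and it ranged from -0.23 to -0.10 over the other settings, with -0.20 without KO mouse 3 and -0.23 without KO mouse 5. For the remaining genes the values without KO mouse 5 were -0.17 for *Adra1a*, -0.24 for *Adra1b*, -0.05 for *Adra2c* and 0.16 for *Adrb1*, and without KO mouse 3 they were -0.21 for *Adra1b* and -0.06 for *Adra2c*.

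**Figure D2:**
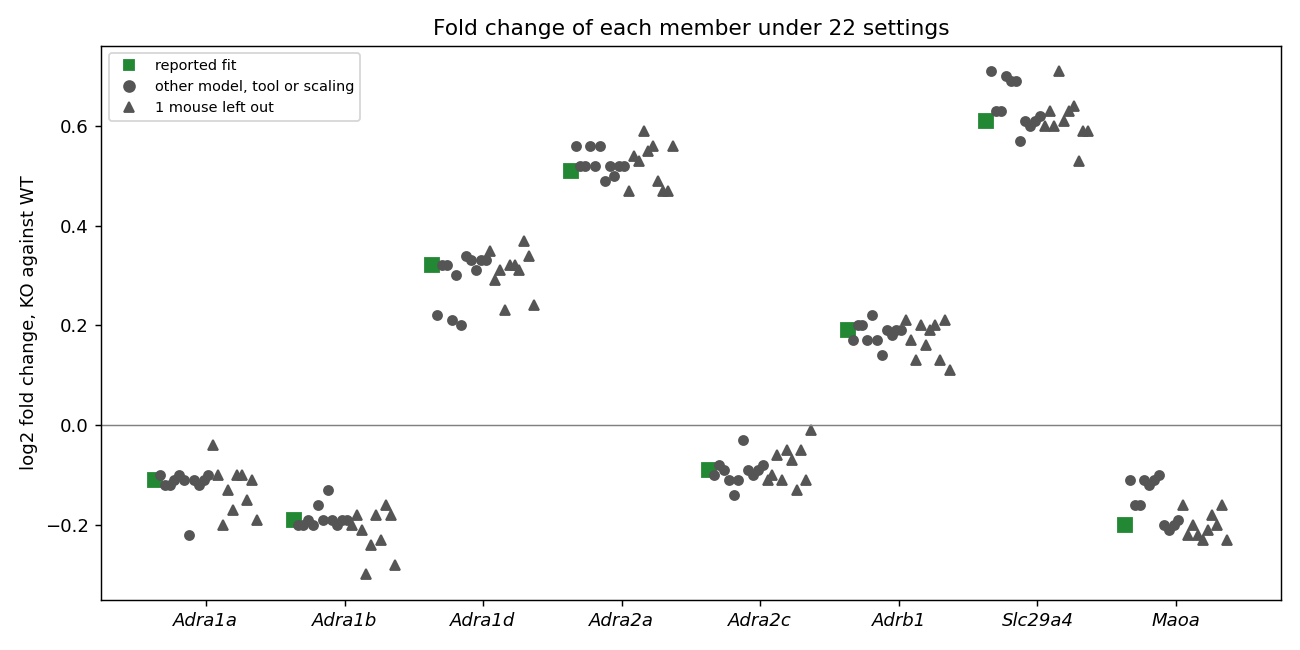
Log2 fold change (KO against WT) of the 8 genes under 22 settings. Green squares are the reported model, grey circles the 11 other models, tools or scalings and triangles the 10 fits that leave out 1 mouse. No gene changed sign, and values of Adra2a lay between 0.47 and 0.59.

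The levels of the 8 genes, which played no part in their selection, were compared per kilobase of exon (RPKM). In WT mice the order was *Adra1d* (21 ± 1.59 RPKM, SD, n = 5), *Adrb1* (10.8 ± 0.527), *Adra1b* (9.75 ± 1.36), *Maoa* (8.64 ± 0.639), *Adra2c* (5.76 ± 0.509), *Adra2a* (2.91 ± 0.316), *Adra1a* (2.0 ± 0.0782) and *Slc29a4* (1.87 ± 0.0765). *Adra1d* alone thus made up 40.3% ± 2.23 of the summed RPKM of the 6 receptors in WT mice and 42.9% ± 4.59 in KO mice. *Adra2a* contributed 5.57% ± 0.658 in WT and 7.64% ± 1.40 in KO mice. The KO order was the same except that *Slc29a4* (3.03 ± 0.468 RPKM) came before *Adra1a* (1.87 ± 0.236 RPKM), a swap that depends on the length used.

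Neighbours in this order were tested within the 10 mice by exact two-sided sign-flip permutation tests, whose smallest possible p is 0.00195, with adjustment over the 7 neighbouring pairs. The WT mice whose means set the order are among the mice tested. The p-values measure how consistent a difference was over mice. They do not cover an error that all libraries share, such as in the length used. In this test *Adra1d* exceeded *Adrb1* by 0.97 on the log2 RPKM scale in 10 of 10 mice (adjusted p = 0.00342, exact permutation). *Adrb1* exceeded *Adra1b* by 0.34 in 9 of 10 mice (adjusted p = 0.0082, exact permutation). The steps from *Maoa* to *Adra2c* (0.58), from *Adra2c* to *Adra2a* (0.66) and from *Adra2a* to *Adra1a* (0.87) each held in 10 of 10 mice (adjusted p = 0.00342 each, exact permutation). Both steps of *Adra2a* pool genotypes that differ in this gene. Mean RPKM of *Adra2c*, *Adra2a* and *Adra1a* was 5.76, 2.91 and 2.0 in WT mice. In KO mice it was 5.36, 4.26 and 1.87. The size of these 2 pooled steps thus describes neither group, although their direction held in both. *Adra1b* and *Maoa* did not differ beyond their spread (0.12, 7 of 10 mice, adjusted p = 0.107, exact permutation). For *Adra1a* and *Slc29a4* the pooled difference was -0.30 (adjusted p = 0.0798, exact permutation), but with the union of exons as the length the order turned with genotype. *Adra1a* was the higher in 5 of 5 WT mice and in 0 of 5 KO mice, so the pooled test describes neither group, and 5 mice alone cannot give an exact permutation p below 0.0625. With the longest transcript as the length, 4282 bases in place of 8728 for *Adra1a*, that gene moved above *Adra2a* in the order of the WT means. *Adra1a* was then also above *Slc29a4*, at 2789 bases in place of 2862, in every KO mouse. The order of *Adra1a* and *Adra2a*, and that of *Adra1a* and *Slc29a4* in KO mice, therefore depends on the length used.

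**Figure D3:**
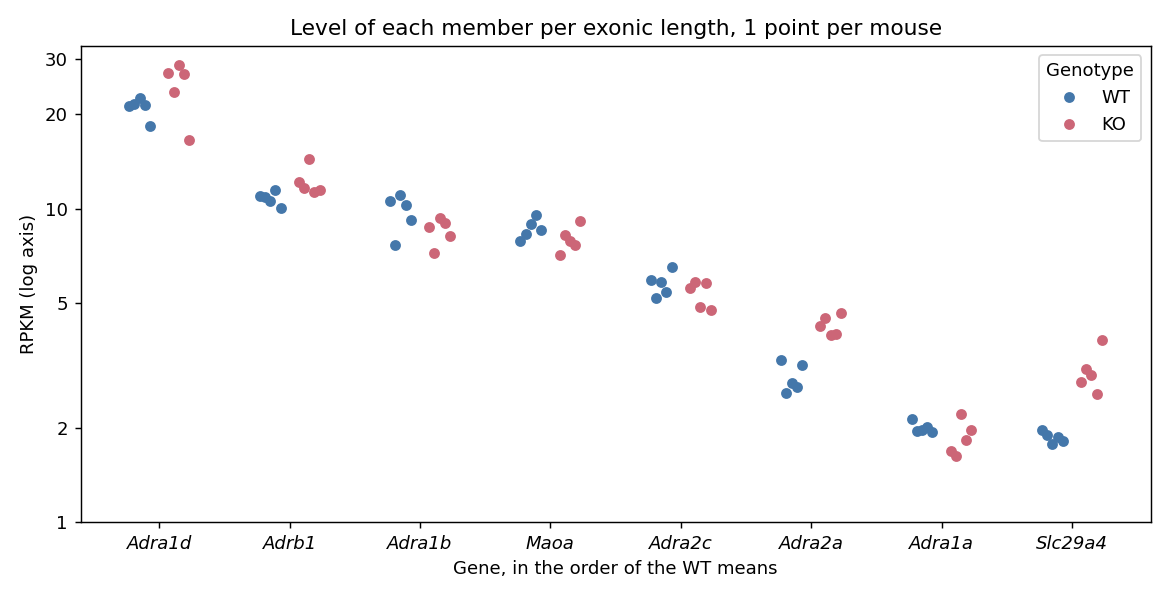
RPKM of the 8 genes on a log axis, in the order of the WT means, with 1 point per mouse and genotypes side by side. Adra1d lies highest, near 20 RPKM, and Adra1a and Slc29a4 lie lowest, with the KO points of Slc29a4 above its WT points.

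RIN ranged from 8.1 to 9.8, and 3 mice of each genotype were at 9.5 or above. In a fit of genotype and RIN over all genes, 0.397% of genes (57) followed RIN at an FDR under 0.05 in edgeR. Among the 8 genes 0 passed in edgeR and 0 in DESeq2, and 1, *Maoa*, had an unadjusted p under 0.05 in edgeR. Its coefficient was -0.11 per RIN unit on the log2 scale (SE 0.04, edgeR, adjusted p = 0.272). *Adra2c* had a coefficient of 0.10 (SE 0.05, edgeR, adjusted p = 0.495), *Adra2a* of 0.03 (SE 0.06, edgeR, adjusted p = 0.904), *Adra1d* of 0.05 (SE 0.08, edgeR, adjusted p = 0.881) and *Slc29a4* of -0.08 (SE 0.08, edgeR, adjusted p = 0.762). The 6 mice with a RIN of 9.5 or above were fitted without surrogate variables. There the KO against WT log2 fold changes were 0.34 for *Adra1d*, 0.49 for *Adra2a* and 0.57 for *Slc29a4*, of the same sign as in all mice.

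Whether the 8 genes varied together from mouse to mouse was examined within the genotypes. Over the 28 pairs, correlations of log2 CPM centred within genotype (n = 10 mice) were positive for 14, with a median Pearson r of 0.01, and 0 passed an adjusted p of 0.05 in exact permutation tests within genotype. The pair with the smallest p was *Adra1d* and *Adra2a*, with r = -0.61 (permutation p = 0.0113, adjusted 0.317), Spearman's rho = -0.59 (permutation p = 0.0281, adjusted 0.588) and r = -0.40 without the 2 mice farthest from the median. The r of largest size among the 28 was that of *Adra1d* and *Slc29a4*, -0.82 (permutation p = 0.0647, adjusted 0.409), with rho = -0.67 (permutation p = 0.0873, adjusted 0.588) and r = -0.63 without 2 mice. *Adra2a* and *Slc29a4*, the genes whose groups did not overlap, had r = 0.50 (permutation p = 0.0605, adjusted 0.409), rho = 0.30 (permutation p = 0.36, adjusted 0.672) and r = 0.61 without 2 mice.

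The genes whose pattern over the 10 mice was most like each member, by Pearson's r of log2 CPM centred within genotype over all tested genes, are given as a description. They were *Rock2*, *Zbtb7a* and *Socs5* for *Adra1d* (r = 0.98 each), *Tbc1d9*, *Col25a1* and *Abr* for *Adra1b* (0.96 each) and, among others, *Stk10* (0.92) and *Nup210l* (0.90) for *Adra1a*. For *Adra2a* they were *Slc38a3* (0.93), *Fam210b* and *Klhdc8a* (0.92 each), and for *Adra2c* *Ccdc24* (0.96), *Havcr2* (0.94) and *Acss2* (0.92). *Fbxo34* and *Klhl24* (0.92 each) and *Depdc7* (0.91) were most like *Adrb1*. *Cd93* (0.95), *Hs3st5* and a gene known by a clone name (0.94 each) were most like *Slc29a4*, and *Ulk4* (0.99), *Mzf1* (0.96) and *Dtnb* (0.94) most like *Maoa*. No gene was among the 3 nearest of more than 1 member. Being the highest of all tested genes over 10 mice, these r values are raised by the selection, and nothing is drawn from them. Spearman's rho for the same pairs ranged from 0.65 for *Nup210l*, a gene with a mean of 0.43 CPM, to 1.0 for *Ulk4*.

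Other genes of noradrenaline signalling and amine metabolism were taken from 13 lists of 98 genes, of which 84 were tested. Of these, 2 were higher and 1 lower in KO mice at an FDR under 0.05 in edgeR, against 86 higher and 35 lower, or 0.844%, over all 14344 tested genes, and 44 had a positive fold change. The lists were drawn up with earlier results of these data known. *Sult1a1*, a sulfotransferase that conjugates phenols and catechols, had 12.4 ± 2.33 CPM in KO and 9.21 ± 2.25 CPM in WT mice (SD, n = 5 each). Its log2 fold change was 0.60 with the surrogate variables (SE 0.10, edgeR, adjusted p = 0.00735) and 0.42 without them. Its ranges overlapped, from 9.20 to 15.6 CPM in KO and from 6.51 to 12.3 CPM in WT mice. *Plcb4*, a phospholipase C activated by Gq, had 106.8 ± 6.02 CPM in WT and 119.6 ± 13.8 CPM in KO mice. Its log2 fold change was 0.26 with the surrogate variables (SE 0.04, edgeR, adjusted p = 0.00508) and 0.16 without them. *Qdpr*, which regenerates the tetrahydrobiopterin that amine synthesis consumes, had 154.3 ± 7.93 CPM in WT and 123.3 ± 22 CPM in KO mice. Its log2 fold change was -0.30 with the surrogate variables (SE 0.05, edgeR, adjusted p = 0.00512) and -0.32 without them.

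*Qdpr* was lowest in KO mouse 5 (93.8 CPM) and, within the KO group, highest in KO mouse 2 (153.7 CPM). The same mice had the lowest and highest summed oligodendrocyte markers, 5950 and 8620 CPM, and the part of these cells in the *Qdpr* value was not tested. All 3 calls were lost without surrogate variables. There the log2 fold change of *Qdpr* was -0.32 (edgeR, adjusted p = 0.334), that of *Sult1a1* 0.42 (edgeR, adjusted p = 0.539) and that of *Plcb4* 0.16 (edgeR, adjusted p = 0.603). The call for *Sult1a1* was also lost without KO mouse 4 (edgeR, adjusted p = 0.0752) or WT mouse 3 (0.0605), and that for *Qdpr* without KO mouse 1 (0.0696) or WT mouse 5 (0.0972). Without KO mouse 3, the 3 genes kept an FDR under 0.05, with log2 fold changes of 0.53 for *Sult1a1*, 0.24 for *Plcb4* and -0.29 for *Qdpr*, as they did without KO mouse 5, with 0.63, 0.26 and -0.23. Without KO mouse 2, 4 of the listed genes were higher.

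**Figure D4:**
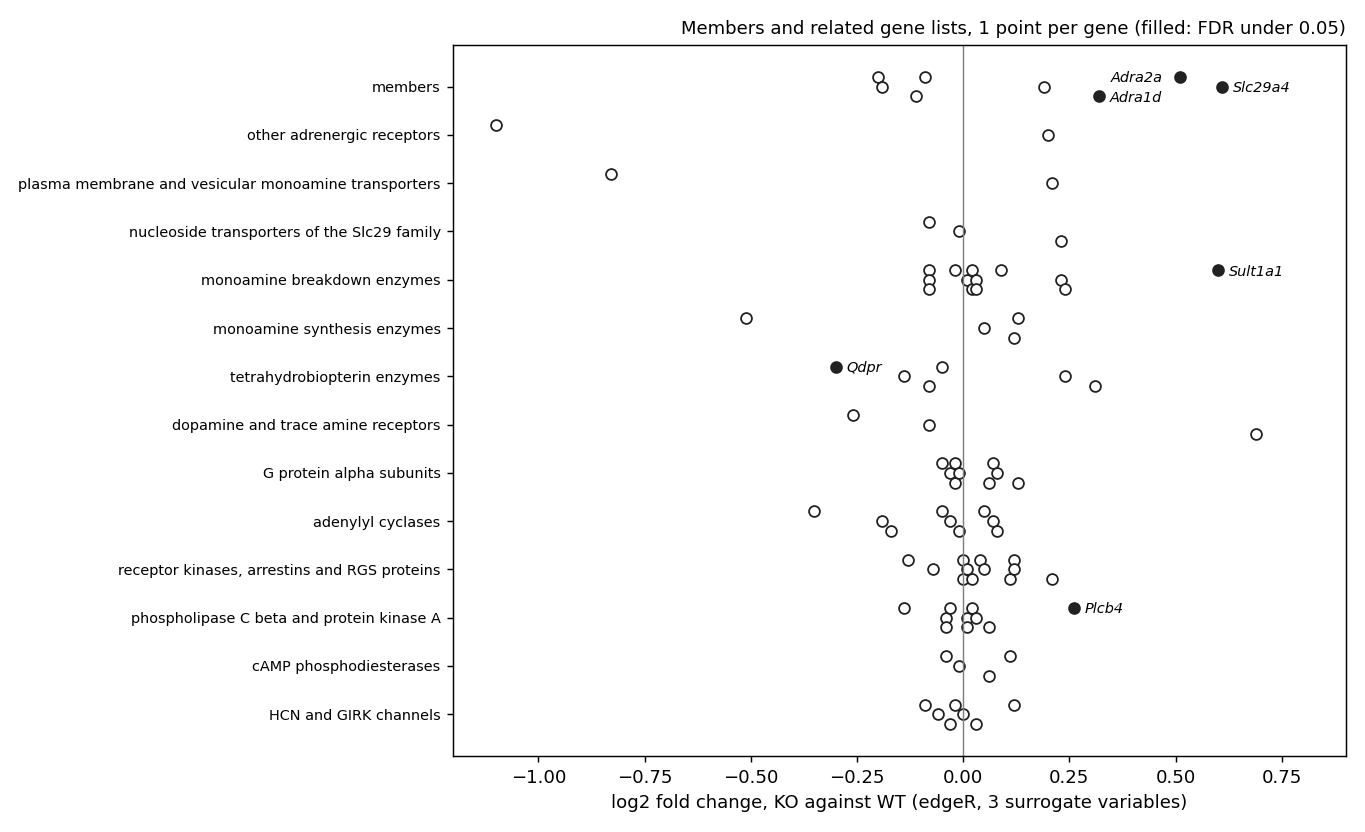
Log2 fold change (KO against WT, model with 3 surrogate variables) of the 8 genes, in the top row, and of 84 tested genes from 13 related lists. Filled points have an FDR under 0.05 and are named, 3 among the 8 genes and Sult1a1, Plcb4 and Qdpr among the lists. Points of the 6 lists from G protein subunits to HCN and GIRK channels lie between -0.35 and 0.26.

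Of the other adrenergic receptors, *Adrb3* (1.39 CPM in WT and 0.906 CPM in KO mice) had a log2 fold change of -1.10 (SE 0.29, edgeR, adjusted p = 0.109). *Adra2b* did not pass the filter, with at most 0.354 CPM in any mouse. The transporters that recapture noradrenaline, dopamine and serotonin at nerve endings, *Slc6a2*, *Slc6a3* and *Slc6a4*, did not exceed 0.199 CPM in any library. In the mature brain these transporters are made mainly by brainstem and midbrain neurons. Among the tested low-affinity organic cation transporters, *Slc22a3* had 0.909 CPM in WT and 1.43 CPM in KO mice (log2 fold change 0.21, edgeR, adjusted p = 0.918) and *Slc22a2* 0.424 and 0.324 CPM (-0.83, edgeR, adjusted p = 0.631).

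The relatives of *Slc29a4* that carry nucleosides, *Slc29a1* to *Slc29a3*, had log2 fold changes between -0.08 and 0.23, and none passed (lowest adjusted p 0.289 in edgeR, for *Slc29a3*). Of 13 other breakdown enzymes, *Sult1a1* alone passed in edgeR. *Maob*, the paralogue of *Maoa*, had 24.7 and 23.9 CPM (-0.08, edgeR, adjusted p = 0.743), and the most abundant enzyme of the list, *Akr1a1*, had 250.7 and 256.9 CPM (0.03, edgeR, adjusted p = 0.79).

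Synthesis genes were sparse. *Th*, the rate-limiting enzyme of catecholamine synthesis, had 2.585 CPM in WT and 1.94 CPM in KO mice (log2 fold change -0.51, edgeR, adjusted p = 0.553) and *Ddc* 5.84 and 5.97 CPM (0.13, edgeR, adjusted p = 0.837). Markers of noradrenergic neurons summed to 2.09 to 3.15 CPM in KO and 1.36 to 4.89 CPM in WT mice, and 1 of the 6 was at 0 in all libraries. *Pts*, in the tetrahydrobiopterin pathway, had a log2 fold change of -0.14 (edgeR, adjusted p = 0.504). Of the dopamine receptors tested, *Drd2* had a log2 fold change of 0.69 (SE 0.30, edgeR, adjusted p = 0.421), with 1.16 to 6.92 CPM in KO and 0.705 to 9.27 CPM in WT mice. Its highest value was in WT mouse 5, the mouse with the most striatal marker RNA, a sum that includes *Drd2* itself. *Drd5* had -0.08 (edgeR, adjusted p = 0.953).

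Downstream of the receptors, *Plcb4* was the 1 gene that passed. The G protein genes *Gnao1* and *Gnas* each had a log2 fold change of -0.02 (SE 0.03), and over the 9 tested alpha subunits values lay between -0.05 and 0.13 with 0 under the threshold. The cyclases *Adcy1* (-0.03) and *Adcy2* (-0.05), the protein kinase A subunits *Prkar1a* and *Prkar1b* (0.01 each), the phosphodiesterases *Pde4a* (-0.04) and *Pde4b* (0.11) and the potassium channel genes *Kcnj3* (0.00) and *Kcnj9* (-0.02) did not pass in edgeR. The smallest adjusted p in those lists, *Plcb4* aside, was 0.241. Among 12 receptor kinases, arrestins, RGS proteins and their partners, 9 had a positive fold change and 0 passed, with *Rgs4* at 0.12 (edgeR, adjusted p = 0.2) and *Ppp1r9b* at 0.11 (edgeR, adjusted p = 0.226). *Rgs14*, named after its value was seen, had 42.7 to 50.2 CPM in KO and 36.0 to 40.4 CPM in WT mice, without overlap (log2 fold change 0.21, SE 0.05, edgeR, adjusted p = 0.0795). Of the 12 lists of cell type markers, including striatal, interneuron, glial and vascular cells, none had a gene with an FDR under 0.05.

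The stretch before the *Slc29a4* start is shown because this gene had the largest difference of the set and its window has an uncommon composition. The 250 bases upstream of the start annotated by RefSeq on GRCm38.p6, chr5:142701851-142702100 on the plus strand, lie in an intron of the longer Gencode transcript. Capitals mark GGGCGG, the GC box.
Slc29a4, 250 bases before the start: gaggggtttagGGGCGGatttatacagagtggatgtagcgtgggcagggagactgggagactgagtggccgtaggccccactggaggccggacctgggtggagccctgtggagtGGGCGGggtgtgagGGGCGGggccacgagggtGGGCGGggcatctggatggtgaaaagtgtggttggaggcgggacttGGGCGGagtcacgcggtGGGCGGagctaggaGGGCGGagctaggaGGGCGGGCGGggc

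This window holds 9 matches to GGGCGG, 2 of which overlap each other, and its GC content is 68.8%. On either strand, 32.7% of the 32851 RefSeq windows of the same length hold at least 1 match and 0.0731% hold as many as *Slc29a4*. In the windows of the other 5 genes with an entry, *Adra1b*, *Adra2a*, *Adra2c*, *Adrb1* and *Maoa*, the motif had at most 1 match. The window also holds 1 match to TATAAA, found on either strand in 12.4% of windows. This match is on the opposite strand and reads TTTATA near the 5′ end of the sequence shown. There is no match to CCAAT (33.8% of windows), TGACGTCA (1.55%) or CACGTG (6.02%). The counts do not bear on binding at this stretch.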

How the data were processed

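Total RNA from the PFC of 10 mice was sequenced as stranded mRNA libraries (101-base paired reads). The authors aligned reads to mm10 with STAR (2.7.1a in the processing notes), kept unique alignments and deposited HTSeq (0.9.1) counts on Gencode M21 protein-coding exons, without normalization. Groups and replicate numbers came from the labels.

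The members and lists were chosen with earlier results of these data known. They are named whatever their change, with Zbtb16 as the label check. From each pathway list every gene with an FDR under 0.05 and the 2 most abundant are named, as are the 3 genes most like each member. Some genes that this rule names are not reported here. Maob, Rgs14, the untested genes and the ends of list ranges were named after their values were seen. From the deposited counts, edgeR 4.0.16 (R 4.3.3) fitted a quasi-likelihood model of genotype and 3 surrogate variables (sva 3.50.0 on log2(CPM + 1)), with TMM scaling, its low-count filter and Benjamini-Hochberg adjustment over 14344 genes at 0.05. SE is the size of the log2 fold change divided by the square root of the F statistic. RPKM used the union of exons in Gencode M21. Floors cover counting error only. Each count table column is 1 mouse, and no pair of the 45 library pairs was within sampling noise (lowest chi-square per degree of freedom 5.67). Alternatives covered surrogate variables, RIN, striatal score, replicate block, tool (DESeq2 1.42.0), scaling, filter and leaving out each mouse. Calculations were tested on simulated data.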

Additional observations from a re-analysis of the deposited data

Results flagged for a closer look

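*Adrb1* in KO mouse 3, at 48.6 CPM, stood apart from the other KO mice, which lay between 38.2 and 41.1 CPM. Its gap to the nearest mouse was 0.715 of the range of the group, above Dixon's 95% critical value of 0.71 for 5 samples. The same library lacked Y-linked counts, as given above.

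By the same measure KO mouse 5 stood apart for *Slc22a3* (3.61 CPM against 0.470 to 1.21 CPM in the other KO mice) and for *Pts* (26.4 CPM against 19.05 to 21.2 CPM). WT mouse 5 stood apart for *Drd2* (9.27 CPM against 0.705 to 1.89 CPM in the other WT mice), and WT mouse 1 for *Slc29a3* (18.1 CPM against 14.7 to 15.5 CPM). These 5 came from 74 groups of 5 mice, over *Zbtb16*, the members and the related genes named by rule, and chance gives about 1 in 20.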

How the results depend on the processing

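No member changed sign under the 11 other models or the 10 fits without a mouse. The count of members with an FDR under 0.05, 3 in the reported model, was 1 with the striatal score and 0 in the subset with RIN at or above 9.5, and ranged from 0 to 3 without 1 mouse. Over the other alternatives it was 2 or 3. These counts rest on the contrast that chose the members and say nothing of their stability. The 2 listed genes that were higher became 0 with no, 1 or 2 surrogate variables, RIN, the striatal score, the replicate block or the RIN subset, and 1 to 4 without 1 mouse. The 1 listed gene that was lower became 0 with no or 1 surrogate variable, RIN, the striatal score, the replicate block or the RIN subset, 2 with DESeq2, and 0 to 1 without 1 mouse. Over all genes 121 calls became 30 without surrogate variables, 15 with the striatal score, 1 in the RIN subset and 229 with DESeq2, and the cause was not tested. The RIN test called 0 members and the pairs 0 under every alternative run. The order had 5 of 7 steps past the threshold in each, but not between the same neighbours throughout, since the length of the longest transcript put *Adra1a* above *Adra2a*. Over all genes the 57 RIN calls became 283 with DESeq2 and 0 with the replicate block added.

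Replicate numbers join different mice. Deviations of mice with the same number correlated at -0.06 to 0.16, and a KO mouse correlated best with its own number for 2 of 5, a hint from the data only. With the replicate block in place of the surrogate variables, 24 genes were called over all genes, members called higher were 2 and members called lower 0, and log2 fold changes were 0.20 for *Adra1d*, 0.56 for *Adra2a* and 0.69 for *Slc29a4*.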
